A study of Brassica napus with 12 samples.

Results

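The EUE epiline of canola (Brassica napus) was compared with its own control, the EUE control, by sequencing of polysomal leaf RNA. Its 3 libraries and the 3 EUE control libraries were taken by their labels and make up 6 of the 12 libraries of the series. The series title names selection for energy efficiency and drought tolerance, and its design text describes selected lines with low respiration and a high content of NAD(P)H. Both EUE groups are of the biennis form of oleifera canola, were 26 days old, had spent 2 weeks on agar and then 12 days in soil, and received no treatment. The fourth leaf was used in both. The other 6 libraries belong to the PEG control and the lines PEG-1 and PEG-2, with 2 each, and entered only the shared estimate of the spread unless stated. The EUE epiline is 1 selected line set against 1 control line, so selection and any other difference between these 2 lines cannot be told apart. The labels call the libraries biological replicates and do not say whether each came from separate plants or from a pool, so p-values measure only the spread between these libraries.

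NAD(P)H is the main carrier of reducing power in plant cells, and mitochondrial respiration oxidises it to make ATP. An epiline is a line whose differences are attributed to heritable chromatin or DNA methylation states. Ribosomes translate an mRNA in groups called polysomes, so the RNA that pellets with them reflects both the amount of a transcript and how much of it is being translated. Canola carries copies of most genes from both of its parental genomes, and reads from near-identical copies can be hard to assign.

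The table holds 60756 gene IDs in 3 classes, defined only by the form of the ID. There are 21260 joined IDs, made of an ERF number and an ERC number, 21922 with an ERF number only and 17574 with an ERC number only. The meaning of the prefixes is not given in the sources used here, and 0 IDs matched the RefSeq gene table, so no gene can be given a name or a role and leaf markers could not be checked. Of the joined IDs 81.4% were abundant enough to test, against 47.8% of the ERF-only and 49.1% of the ERC-only IDs, which left 36410 tested IDs. Total counts of the EUE libraries ran from 36813262 to 42696798, and between 38920 and 40204 IDs had at least 1 count in a library. Levels are given in CPM, counts per 1000000 after scaling by edgeR's TMM method, and 1 CPM is a low level at this depth.

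The difference between the EUE epiline and its control had the shape of a nearly still centre with a long tail on the higher side. Over all 36410 tested IDs the median log2 difference between the means of the 2 lines was -0.023, and the middle 50% of IDs lay between -0.18 and 0.16. The 1st percentile was -0.98 and the 99th was 1.82, so the higher side reached farther out than the lower side. More than 2-fold higher in the epiline were 1231 IDs (3.38% of those tested) and more than 2-fold lower were 340 (0.934%). These are counts of mean differences and not of calls by a test. The lower count was 989 without control library 3 and 812 and 830 without epiline libraries 1 and 2, and the higher count was 1190 to 1765 without any 1 library.

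The lower tail was made almost wholly of scarce IDs, and the higher tail was not. Of the 340 IDs more than 2-fold lower, 298 had a mean under 1 CPM and 37 lay between 1 and 5 CPM. Of the 1231 on the higher side, 543 had a mean under 1 CPM, 316 lay between 1 and 5, 264 between 5 and 20, 102 between 20 and 100, and 6 at 100 CPM or more. Among the 17474 IDs of at least 5 CPM the split was thus 372 higher to 5 lower. At a 4-fold size it was 101 to 0, and at an 8-fold size 30 to 0. Below 1 CPM the 2 sides were closer, with 6.12% of IDs over 2-fold higher and 3.36% over 2-fold lower.

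**Figure D1:**
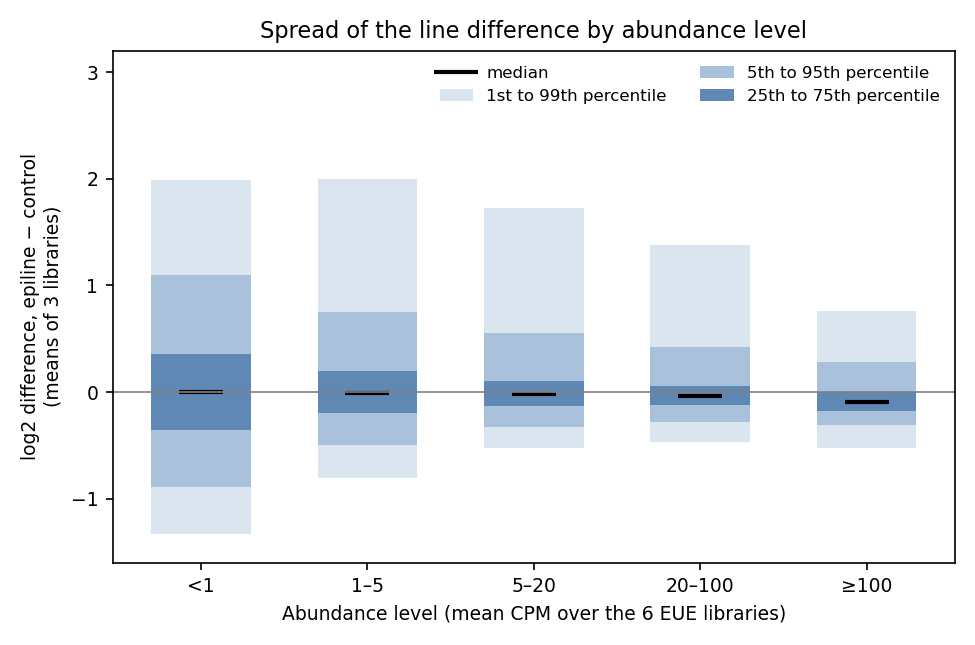
Percentiles of the log2 difference between the EUE epiline and the EUE control (means of 3 libraries each, log2 CPM) for the tested IDs of 5 abundance levels, with the median as a black bar. The 99th percentile lies farther from 0 than the 1st at every level, and the median is -0.094 at 100 CPM and more.

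The spread narrowed with abundance, but the 2 sides did not narrow alike. Between the levels under 1 CPM and 20 to 100 CPM the 1st percentile moved from -1.33 to -0.46, while the 99th moved from 1.99 to 1.38. At 5 to 20 CPM the 1st percentile was -0.53 and the 99th was 1.73. Only at 100 CPM and more did the higher side come close in, with a 99th percentile of 0.76 against a 1st of -0.52.

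The centre was slightly lower in the epiline among the most abundant IDs. The median log2 difference was 0 under 1 CPM, -0.011 from 1 to 5 CPM, -0.017 from 5 to 20 CPM, -0.039 from 20 to 100 CPM and -0.094 at 100 CPM and more. In that top level the median deviation of a library from the mean of the 6 was 0.039, -0.11 and 0.20 in the control libraries 1 to 3, and -0.028, -0.12 and 0.031 in the epiline libraries. All 3 same-numbered differences were negative, at -0.067, -0.0077 and -0.17, with an SD of 0.080. The groups overlapped, and the difference did not exceed the spread between libraries (exact permutation test of 3 against 3, 2-sided, p = 0.4, where the smallest possible is 0.1). This and all later exact permutation tests leave the replicate numbers out of account. Without EUE control replicate 2 the median of the top level was -0.17, and without EUE control replicate 3 it was -0.038.

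The share of all counts was on average lower in the epiline for the top level and higher for every level below it, with overlapping groups at each. The 1078 IDs of at least 100 CPM took 61.6%, 58.4% and 62.3% of the counts in control libraries 1 to 3 and 59.9%, 58.1% and 59.2% in the epiline libraries. Their share was lower in the epiline in all 3 pairs, at 59.0% ± 0.915 (SD, n = 3) against 60.8% ± 2.04 (SD, n = 3), but the groups overlapped (exact permutation p = 0.3). The 10403 IDs from 5 to 20 CPM took 11.2%, 11.9% and 10.5% in the control and 12.0%, 12.1% and 11.6% in the epiline. Here the epiline was higher in all 3 pairs, again with overlapping groups (exact permutation p = 0.2). The 5993 IDs from 20 to 100 CPM took 25.8% ± 0.870 (SD, n = 3) in the epiline and 24.9% ± 1.10 (SD, n = 3) in the control, higher in all 3 pairs with overlapping groups (exact permutation p = 0.2). From 1 to 5 CPM the means were 2.86% in the epiline and 2.69% in the control, higher in all 3 pairs (exact permutation p = 0.6). Under 1 CPM they were 0.409% and 0.389%, with pair 2 going the other way (exact permutation p = 0.7). The number of IDs with a count, 39769 ± 532 (SD, n = 3) in the epiline and 39578 ± 574 (SD, n = 3) in the control, differed by less than the spread between libraries (exact permutation p = 0.6).

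Few single IDs passed a test. Unpaired, 0 of the 36410 IDs (0%) reached an adjusted p under 0.05 in edgeR, and the smallest adjusted p was 0.138. Unadjusted p-values under 0.05 were held by 1519 IDs (4.17%), where 1820.5 would be by chance, and 1288 of these were higher in the epiline (3.54%) and 231 lower (0.634%). The p-values piled up at the other end, with 2513 IDs between 0.95 and 1. The direction of the small p-values was thus uneven although their number was not in excess.

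DESeq2 on the same libraries and groups called 383 IDs (1.07% of the 35684 to which it gave an adjusted p), of which 373 were higher (1.05%) and 10 lower (0.028%). Its higher calls were most frequent at 5 to 20 CPM, with 149, followed by 109 at 1 to 5 CPM, 69 at 20 to 100 CPM, 45 under 1 CPM and 1 at 100 CPM and more. All 10 lower calls had a mean under 5 CPM. Of all tested joined IDs 1.20% were called higher by DESeq2, against 0.868% of the ERF-only and 0.858% of the ERC-only IDs. In the same class order the shares were 0.819%, 0.377% and 0.402% under 1 CPM. They were 1.415%, 0.751% and 0.986% from 1 to 5 CPM. From 5 to 20 CPM they were 1.455%, 1.462% and 1.325%, and from 20 to 100 CPM 1.074%, 1.5% and 1.085%. Joined IDs thus led only under 5 CPM among these levels.

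Same-numbered libraries of the 2 lines were more alike than libraries of 1 line in the middle of the distribution, but not always in its tails. Deviations from the group means correlated between same-numbered libraries with r of 0.60, 0.73 and 0.61 over 17413 IDs. As all 3 were over 0.1, same-numbered libraries were treated as pairs. What a replicate number stands for is not stated in the labels. At 5 CPM and more the interquartile range of the log2 difference was 0.31, 0.40 and 0.39 in pairs 1 to 3. Between libraries of the same line it was 0.54 to 0.76. Control libraries 2 and 3 differed by more than 2-fold in 1295 IDs one way and 1124 the other. Control libraries 1 and 3 did so in only 462 and 127 IDs, fewer than the 616 and 173 of pair 2 and the 608 and 87 of pair 3.

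Replicate number took a larger part of the variation than line. In the layout of 2 lines by 3 numbers, over the 36277 IDs that varied, the line held a median of 6.73% of the sum of squares of an ID, the number 69.3% and the remainder 15.7%. Their shares of the degrees of freedom are 20%, 40% and 40%. With the squares summed over all these IDs, the line held 19.7%, the number 58.7% and the remainder 21.6%. The line thus lay close to its 20%, while the remainder lay well under its 40%. As the number took more than its 40%, a line share near or under 20% does not show that the line had no effect. By level, the line held 18.9% under 1 CPM, 21.3% at 1 to 5 CPM and 22.0% at 5 to 20 CPM. It held 15.8% at 20 to 100 CPM and 11.3% at 100 CPM and more. The share of the number went from 53.8% under 1 CPM to 76.8% at 100 CPM and more, and that of the remainder from 27.4% to 11.9%. The 3 classes lay close together, with the line at 21.2% for joined, 18.6% for ERF-only and 18.6% for ERC-only IDs.

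**Figure D2:**
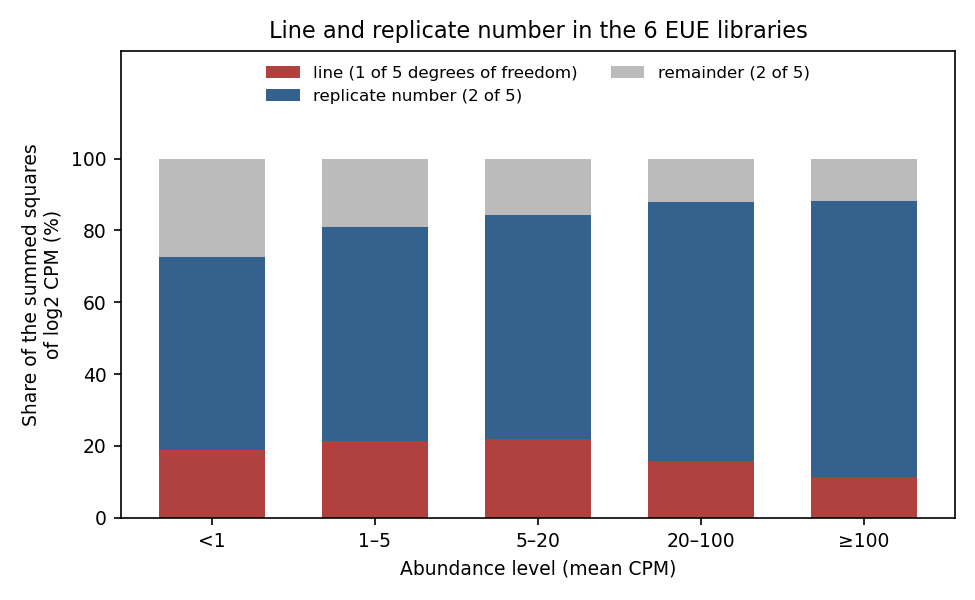
Share of the sum of squares of log2 CPM, summed over the IDs of an abundance level, held by line, replicate number and remainder in the 6 EUE libraries. The number takes 53.8% under 1 CPM and 76.8% at 100 CPM and more.

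With the replicate number as a block in the EUE libraries, edgeR called 1 of 36410 IDs (0.00275%), which rose. Unadjusted p-values under 0.05 were then held by 2243 IDs (6.16%), 1696 higher (4.66%) and 547 lower (1.5%), against 1820.5 by chance. The biological coefficient of variation fell from 32.2% to 24.9%. Blocks in both experiments gave 69 calls (0.19%), 65 higher (0.179%) and 4 lower (0.011%), though the PEG numbers have no established pairing. DESeq2 with the EUE block called 540 IDs (1.57%), 526 of them higher (1.53%) and 14 lower (0.0408%). Leaving out single libraries changed the edgeR count of 1. With the EUE block, an EUE library without its same-numbered partner no longer informs the line difference. Leaving out either library of a pair therefore acts nearly as leaving out the whole pair. The count was 354 without EUE control replicate 1 and 353 without EUE epiline replicate 1, with 350 and 349 higher. It was 0 without replicate 2 or 3 of either EUE group, without either PEG-1 library and without PEG-2 replicate 1. In the unpaired fit the count of 0 became 205 without EUE epiline replicate 1, with 202 higher and 3 lower, while leaving out any other single library gave 0.

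The pairs differed in how much of the shape they carried. Among the IDs of at least 5 CPM, pair 1 had 55 over 2-fold higher and 21 over 2-fold lower. Pair 2 had 616 higher and 173 lower, and pair 3 had 608 higher and 87 lower. The higher side was thus the larger in each pair, by a smaller number in pair 1. Over all tested IDs, scarce ones included, pair 1 was slightly uneven the other way, with 1178 higher and 1266 lower, while pairs 2 and 3 kept more on the higher side.

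**Figure D3:**
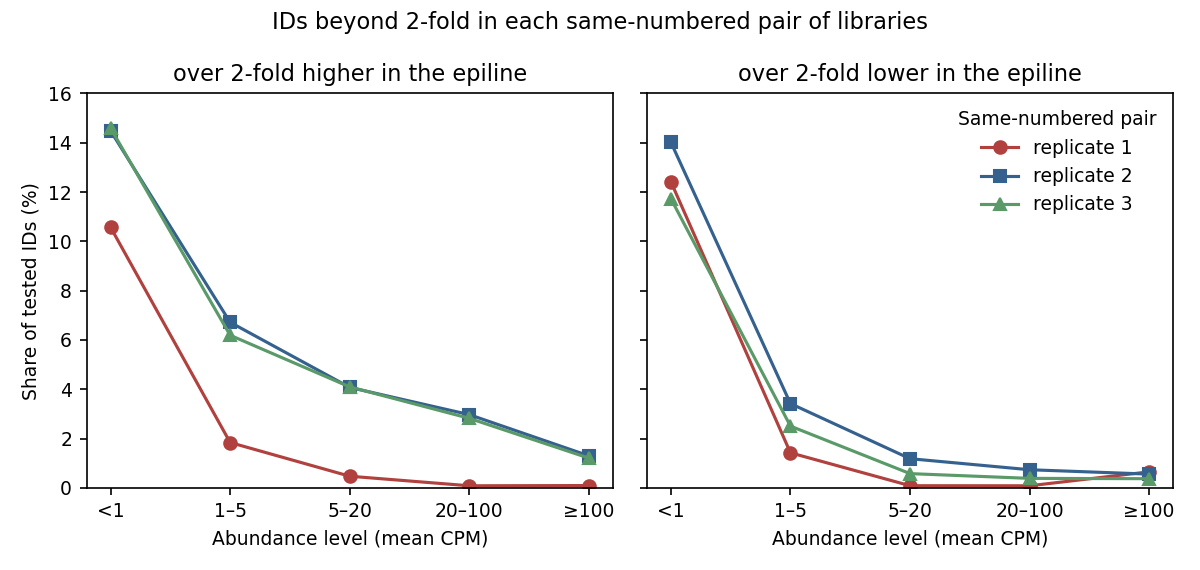
Share of tested IDs more than 2-fold higher (left) or lower (right) in the epiline library than in the same-numbered control library, by abundance level. Pairs 2 and 3 run close together on the higher side, at 4.08% and 4.09% from 5 to 20 CPM, and pair 1 lies at 0.471% there.

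The IDs on the higher side overlapped between pairs, which was read in each case from the pair not used to choose them. At a mean of 5 CPM or more, 42 IDs were more than 2-fold higher in both pair 1 and pair 3, and 41 of these (97.6%) were more than 2-fold higher in pair 2 as well, where 3.53% of all such IDs were. Chosen in pairs 1 and 2, 41 of 45 (91.1%) were over 2-fold higher in pair 3, against 3.48%. Chosen in pairs 2 and 3, 41 of 421 (9.74%) were over 2-fold higher in pair 1, against 0.315%, and 345 of the 421 (81.9%) were higher there by any amount, against 47.1%. The median log2 difference of the 421 in pair 1 was 0.30. Pair 1 therefore went the same way for most of them at a much smaller size. With no minimum the shares were lower, at 171 of 309 (55.3%) in pair 2, against 7.08% of all tested IDs, and 171 of 301 (56.8%) in pair 3, against 6.94%. The mean that set the minimum of 5 CPM includes the pair that was read, and IDs that move together are not separate trials.

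On the lower side fewer IDs were alike in 2 pairs. Without a minimum level, 199 IDs were more than 2-fold lower in both pair 2 and pair 3, and 40 of them (20.1%) were so in pair 1, against 3.48% of all tested IDs. On the higher side 1149 IDs were so in pairs 2 and 3, and 171 (14.9%) in pair 1, against 3.24%. In all 3 pairs 171 IDs were thus over 2-fold higher and 40 over 2-fold lower, and 32 of the 40 had a mean under 1 CPM. Counted by sign alone on the TMM scale the balance turned round, with 4731 IDs higher and 6198 lower in all 3 pairs. At 100 CPM and more these numbers were 61 and 338. Over the IDs of at least 5 CPM the log2 differences correlated with r of 0.57 between pairs 2 and 3, 0.28 between pairs 1 and 2 and 0.22 between pairs 1 and 3, given as a description over 17474 IDs measured in the same 6 libraries.

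The 372 IDs of at least 5 CPM that were more than 2-fold higher in the epiline followed 1 order over the libraries. Their median level was 7.15, 3.65 and 5.74 CPM in control libraries 1 to 3 and 9.88, 16.4 and 27.8 CPM in epiline libraries 1 to 3. These IDs were chosen by their difference, so their levels are a description. Epiline replicate 3 was the highest of the 6 libraries for 331 of the 372 and control replicate 2 the lowest for 316. Epiline replicate 1 was the lowest epiline library for 332, and control replicate 1 the highest control library for 263, so the 2 libraries numbered 1 lay next to each other in the middle. Their spread within a line was wide, with a median range between control libraries of 1.26 on the log2 scale at 5 to 20 CPM, against 0.54 for the IDs within 2-fold at that level. Without EUE epiline replicate 3 the number of such IDs was 200, and without the other EUE libraries in turn it was 268 to 506.

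**Figure D4:**
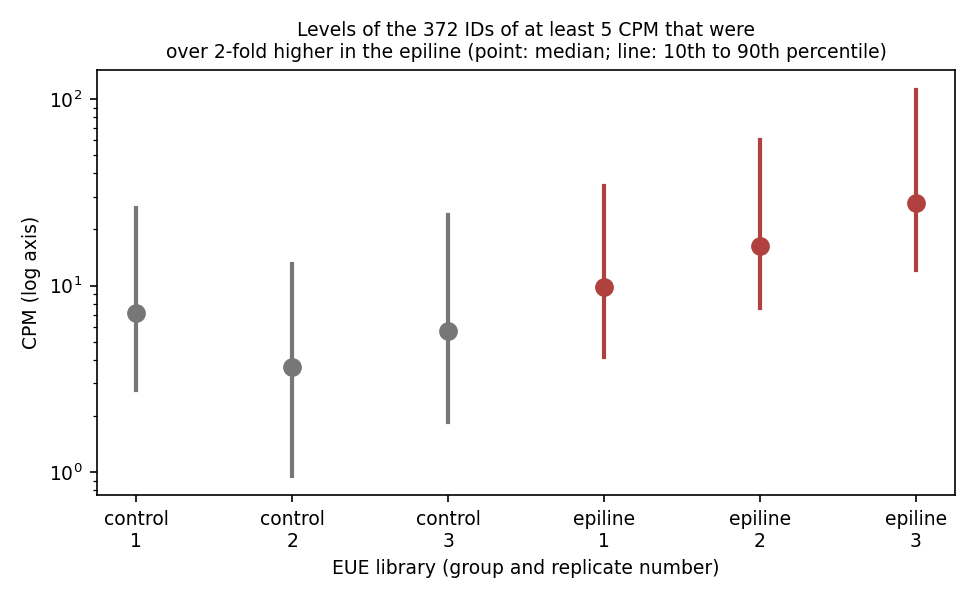
Level in CPM, on a log axis, of the 372 IDs of at least 5 CPM that were over 2-fold higher in the epiline, in each of the 6 EUE libraries; points are medians and lines run from the 10th to the 90th percentile. The medians rise from 3.65 CPM in control replicate 2 to 27.8 CPM in epiline replicate 3, with both libraries numbered 1 in between.

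The same 372 IDs had medians of 5.29 and 8.33 CPM in the PEG control libraries, 14.4 and 23.3 CPM in PEG-1 and 11.1 and 16.3 CPM in PEG-2. The PEG libraries had no part in their choice other than through the abundance filter and scaling, and the 4 libraries of the selected PEG lines lay above both PEG control libraries. Replicate 2 was the higher in each PEG group, and over the EUE control libraries alone the medians ran from 3.65 to 7.15 CPM. Whether the PEG difference exceeds such a spread was not tested.

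The 5 IDs of at least 5 CPM that were more than 2-fold lower, named after their values were seen, were ERF57346, ERF63456-ERC40845, ERF78529-ERC39014, ERF93959-ERC54832 and ERF95875-ERC59942. In each of them EUE control replicate 2 was the highest of the 6 libraries, at 16.4 to 36.5 CPM, while the other control libraries lay between 1.90 and 9.16 CPM. The groups overlapped in all 5. In the PEG libraries the medians of the 5 IDs were 11.8 and 21.7 CPM in the control, 2.49 and 2.31 CPM in PEG-1 and 11.4 and 6.75 CPM in PEG-2. ERF78529-ERC39014 was more than 2-fold lower in every pair. In the other 4 the log2 difference of pair 2 lay between -3.71 and -3.27, and those of pairs 1 and 3 between -0.72 and 0.54. The number of such IDs was 82 without EUE control replicate 3, 43 without EUE epiline replicate 1, 20 without EUE control replicate 1 and 16 without EUE epiline replicate 2.

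The 3 ID classes had nearly the same share of IDs on the higher side, and the joined class had a smaller share on the lower side. More than 2-fold higher were 3.39% of the joined, 3.38% of the ERF-only and 3.36% of the ERC-only IDs. More than 2-fold lower were 0.520%, 1.32% and 1.30%. Scarce IDs, where most lower differences lay, were 2442 of the 17297 joined, 3448 of the 10485 ERF-only and 2982 of the 8628 ERC-only IDs. Within that level under 1 CPM the shares lower were 2.91%, 3.54% and 3.52%. The median log2 differences of the classes were -0.025 for joined, -0.017 for ERF-only and -0.025 for ERC-only IDs.

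At matched abundance the classes parted on the higher side. Under 1 CPM 8.52% of joined IDs were more than 2-fold higher, against 4.99% of ERF-only and 5.47% of ERC-only IDs. From 1 to 5 CPM the shares were 3.92%, 2.63% and 2.60%. From 5 to 20 CPM they were close together at 2.53%, 2.77% and 2.24%, and from 20 to 100 CPM ERF-only IDs led with 2.44%, against 1.60% of joined and 1.22% of ERC-only IDs. At 100 CPM and more the 6 IDs over 2-fold higher were all joined, among 796 joined, 176 ERF-only and 106 ERC-only IDs. Under 5 CPM this order did not hold in pair 1. Under 1 CPM pair 1 had 9.87% of joined, 10.6% of ERF-only and 11.2% of ERC-only IDs over 2-fold higher. Pair 2 had 18.0%, 13.9% and 12.3% there, and pair 3 had 17.9%, 13.5% and 13.2%. From 1 to 5 CPM the shares in pair 1 were 1.86%, 1.60% and 2.08%. These shares count IDs of the same 6 libraries that can move together, and no test across IDs was made.

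**Figure D5:**
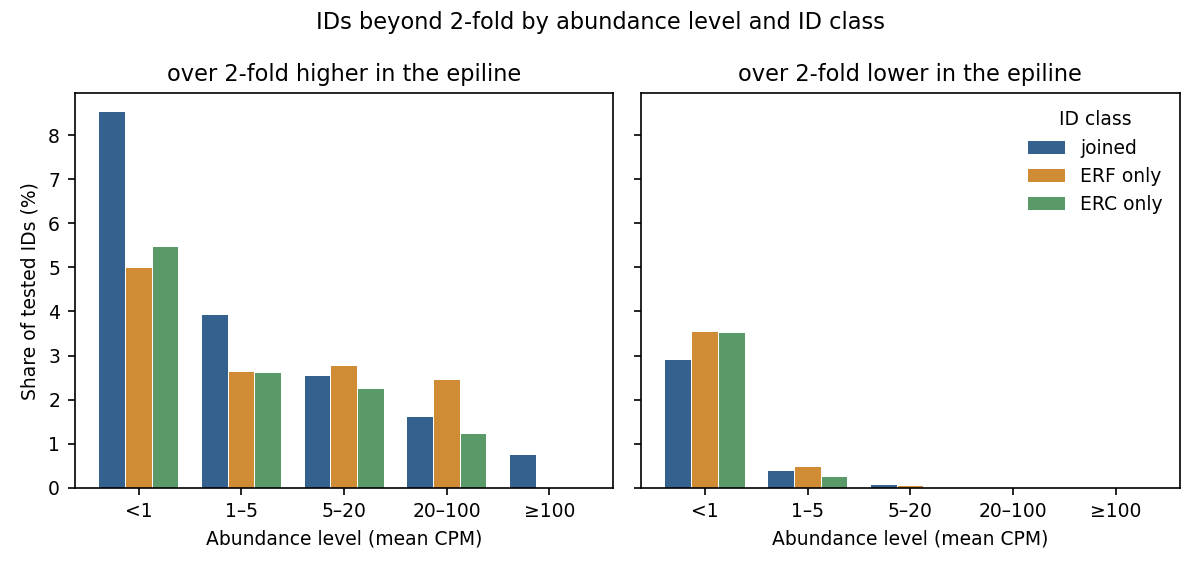
Share of tested IDs more than 2-fold higher (left) or lower (right) in the epiline by abundance level and ID class. Joined IDs have the highest share on the higher side under 1 CPM (8.52%) and ERF-only IDs from 20 to 100 CPM (2.44%), and almost nothing is left on the lower side above 5 CPM.

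The share of counts in each class did not part the lines. Of the counts, the joined class held 70.8% ± 0.405 (SD, n = 3) in the epiline and 71.0% ± 0.778 (SD, n = 3) in the control (exact permutation p = 0.8). ERF-only IDs took 16.8% ± 0.313 (SD, n = 3) and 16.7% ± 0.604 (SD, n = 3), with p = 0.8 in the same exact permutation test. ERC-only IDs took 12.4% ± 0.219 (SD, n = 3) and 12.3% ± 0.163 (SD, n = 3) and were higher in the epiline in all 3 pairs, by 0.031 to 0.17 percentage points (exact permutation p = 0.5). IDs with a count in every epiline library and 0 in every control library numbered 95, of which 26 were joined, 35 ERF-only and 34 ERC-only. In the opposite direction there were 63, with 9, 35 and 19. Only 3 of the 95 and 1 of the 63 had at least 3 read pairs in every library of the line with counts, so nearly all of both numbers lie within what a count of 0 allows in at least 1 library, and no difference between 95 and 63 is read from them.

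All 3 epiline libraries lay above all 3 control libraries in 1384 IDs (3.8% of those tested) and below them in 1023 (2.81%). The balance turned with abundance. Above were 4.05%, 4.38%, 4.04%, 2.59% and 0.835% of the IDs from the lowest to the highest level. Below were 3.44%, 2.41%, 2.53%, 2.69% and 4.73%, so the side below was the larger from 20 CPM upward. At 20 to 100 CPM this rested on 161 IDs below against 155 above. Of the 20 splits of 6 libraries into 3 and 3, 1 puts the epiline above and 1 below. All these shares were under 1 in 20, but that mark holds only where all splits are equally likely. Same-numbered libraries moved together here, so neither an excess nor a lack of parted IDs is read from the shares. With total counts in place of TMM scaling the split was 1860 above and 617 below, and the median of all tested IDs was 0.033 in place of -0.023. The number of IDs below is therefore set in part by the scaling. With any EUE library left out, 2411 to 2917 lay above and 2086 to 3401 below, since groups of fewer libraries overlap less often.

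The 1 ID that passed in the paired test was ERF82613-ERC32455, a joined ID of low level. It had 0, 0 and 2 counts in control libraries 1 to 3 and 28, 96 and 350 in the epiline libraries, or 0.695, 2.15 and 8.34 CPM. A count of 0 allows up to 3 read pairs, here 0.161 and 0.163 CPM before TMM scaling. The 3 epiline libraries differed by more than 10-fold among themselves, and each lay above every control library. Over the group sums, 237 read pairs against 1 gave a ratio of 223 with a 95% interval from 39.6 to 8846, which covers counting error only. In the other experiment it had 2 and 0 counts in the PEG control libraries, 62 and 56 in PEG-1 and 20 and 14 in PEG-2. Its adjusted p was 0.0157 in edgeR with the block and 0.272 without it. Over the alternatives of the paired fit the adjusted p ran from 1.57e-10 to 1. It was over 0.05 without either PEG-1 library, without PEG-2 replicate 1 and without replicate 2 or 3 of either EUE group.

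ERC55326 had the next smallest p among IDs that were higher and did not pass (edgeR adjusted p = 0.349 with the block, 0.272 without; 0.000171 to 1 over the alternatives). It was at 0.785, 0.550 and 0.486 CPM in the control libraries and 2.53, 1.79 and 1.52 CPM in the epiline libraries. The log2 differences of pairs 1 to 3 were 1.63, 1.62 and 1.55, so the 3 pairs were nearly equal. The paired fit put its log2 fold change at 1.68 (SE 0.231). In the other experiment ERC55326 was at 2.45 and 2.13 CPM in the PEG control, 3.21 and 4.14 CPM in PEG-1 and 1.95 and 2.01 CPM in PEG-2.

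On the lower side ERF86571-ERC26059 and ERC38915 had the smallest p in the paired fit, and neither passed. ERF86571-ERC26059 had 92, 82 and 82 counts in control libraries 1 to 3 and 2, 4 and 0 in the epiline libraries. The 128 read pairs of the control against 3 of the epiline gave a ratio of 45.3 with a 95% interval from 15.2 to 223 for counting error, and the edgeR adjusted p was 0.199 with the block (9.56e-08 to 1 over the alternatives). It passed with the block in DESeq2, with blocks in both experiments, with no filter and without replicate 1 of either EUE group. Unpaired, it passed in DESeq2 (adjusted p = 7.19e-10) and not in edgeR, where its adjusted p of 0.138 was the smallest of the fit. In the other experiment it was at 0.569 and 0.461 CPM in the PEG control, 0.276 and 0.698 CPM in PEG-1 and 0.473 and 0.547 CPM in PEG-2. ERC38915 was at 1.88, 1.75 and 1.94 CPM in the control and 0.744, 0.763 and 0.810 CPM in the epiline. Its log2 fold change in the paired fit was -1.26 (SE 0.175; paired edgeR adjusted p = 0.349, 0.000655 to 1 over the alternatives), and libraries of 1 line differed little. ERC38915 passed in DESeq2 with and without the block and in edgeR with blocks in both experiments. In the PEG libraries this ID lay far higher, from 9.25 to 12.6 CPM.

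IDs with neighbouring numbers were only weakly alike in their line difference. Tested IDs of 1 class were put in order of number, joined IDs by their ERF number, and each was set beside the next. Where these numbers lay at most 10 apart, r was 0.044 for 17045 joined, 0.058 for 9723 ERF-only and 0.048 for 7874 ERC-only neighbours. The difference between replicate numbers 2 and 3 gave 0.033, 0.059 and 0.028 over the same neighbours. These values describe IDs that share 6 libraries, and what a number stands for is not given in the sources used here.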

How the data were processed

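Polysomal leaf RNA of 12 libraries was sequenced. The authors deposited raw counts of reads for each gene ID and library. GSNAP and SAMtools are named in the submitters' processing notes. The sources used here do not give the genome, annotation, counter or strand setting. Reads of near-identical or overlapping genes could therefore be split or shared. Every count was even (0 odd values), as if both mates of a pair had been counted, so 2 counts were taken as 1 read pair. All 12 columns were matched to samples by name, with 0 columns of other samples.

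Counts of all 12 libraries were scaled by TMM, filtered by group with filterByExpr (minimum count 10) and tested with the quasi-likelihood method of edgeR 4.0.16 under R 4.3.3, with p-values adjusted by Benjamini-Hochberg over 36410 IDs and a threshold of 0.05. The unpaired fit had 1 mean per group, and the paired fit added the replicate number of the EUE libraries. Standard errors were taken from the F statistic. DESeq2 1.42.0 was an alternative. Differences are of mean log2 CPM with a prior count of 2, on which low IDs are understated. Abundance levels use the mean CPM over the 6 EUE libraries, with limits at 1, 5, 20 and 100 CPM. Pairing was checked by the correlation of deviations from group means over IDs of at least 5 CPM, with a minimum r of 0.1, and comes from the data and not from the labels. Fits and summaries were tested on simulated counts. Total counts per EUE library limit the precision, and counting intervals are exact (Clopper-Pearson).

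In each direction the named IDs were the one with the smallest p and the one with the highest mean among IDs that passed the paired test in the same direction in all 3 pairs, and empty places were filled by the next smallest p at a mean of at least 1 CPM. The comparison, the levels, the tests and the rule were chosen with earlier results of these data known.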

Additional observations from a re-analysis of the deposited data

How the results depend on the processing

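The unpaired count of 0 was 27 with no filter, 383 in DESeq2 and 1 with the replicate block within the EUE libraries, and 0 to 205 with libraries left out. The paired count of 1 was 2 with no filter, 0 with at least 5 CPM in 2 libraries, 2 with the block and no PEG libraries, 540 in DESeq2 with the block, 0 with no replicate block and 69 with the replicate block within both experiments, and it ran from 0 to 354 with libraries left out. The block ended or made no other call of the unpaired fit. Leaving out both libraries of replicate number 1, an alternative chosen after seeing the data as were all counts by 2-fold size, gave 69 unpaired and 352 paired calls. Without numbers 2 or 3 there was no call.

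More IDs were over 2-fold higher than over 2-fold lower under every setting run. IDs over 2-fold higher numbered 526 with at least 5 CPM in 2 libraries, 1190 to 1765 with libraries left out and up to 1913 with a pair left out. Those over 2-fold lower numbered 17 under that filter, 723 with a prior count of 0.5, 318 to 989 with libraries left out, and 749, 525 and 672 without pair 1, 2 or 3. At 5 CPM and more the higher ones ran from 200 to 506 with libraries left out and were 581 and 242 without pair 1 or 3. The lower ones were 9 with levels by the PEG libraries, 4 to 82 with libraries left out, and 34 and 40 without pair 1 or 3. The median of the top level stayed negative in all 15 alternatives, from -0.17 to -0.034, and was -0.17 to -0.038 with libraries left out. The medians of the lower levels changed sign with the scaling or with single libraries, so no direction is given for them. IDs above numbered 787 and IDs below 542 under the 5 CPM filter. With libraries left out there were 2411 to 2917 above and 2086 to 3401 below, and without pair 1, 2 or 3 there were 4363, 3981 and 3634 above and 4801, 4171 and 4234 below, where fewer libraries make it easier for groups not to overlap, and 617 lay below with total counts. The median of joined IDs minus that of single IDs, -0.0045, ran from -0.036 to 0.035 with libraries left out. Depth limits IDs under 1 CPM most, and the cause of the changes was not tested.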
